A study of Homo sapiens with 3 samples.

Results

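The genes described are 8 transcription factor genes of cortical projection neurons, the excitatory cells that send axons out of the cerebral cortex or between its areas: TBR1, BCL11B, FEZF2, EOMES, CUX1, CUX2, EMX1 and EMX2. They were chosen by name, and their accessible regions are all intervals of the ATAC-seq list with a summit inside the RefSeq GRCh38 body of a gene or within 50 kb of its outer ends. By this rule the 8 genes, of 20037 protein-coding genes, had 70 of the 65234 distinct regions of the list. The cells were labelled as neurons and came from KOLF2.1J-hNGN2, a derivative of the human induced pluripotent stem cell line KOLF2.1J in which the proneural factor NGN2 drives differentiation, at 14 days of it. ATAC-seq cuts and tags open DNA with the Tn5 transposase, so open regions collect more tags than their surroundings. The 3 replicates form 1 group with no other condition, and the authors combined them in 1 list, so there is no value per replicate, no standard deviation and no test between conditions. All samples come from 1 cell line.

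In the developing cortex, neurons of the deep and of the upper layers are set apart by transcription factors that are made in sequence. TBR1 marks the neurons of the layer that projects to the thalamus, whereas FEZF2 and BCL11B (also called CTIP2) act in neurons that project below the cortex. EOMES (TBR2), a T-box factor like TBR1, is known for the intermediate progenitors that divide to give neurons. CUX1 and CUX2 are paralogous homeodomain factors used as upper-layer markers, and EMX1 and EMX2 are homeodomain factors that pattern the dorsal forebrain before neurons form. NGN2 is a proneural factor that in the cortex acts upstream of several of these genes.

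The sequences at 4 of the gene starts are shown because these genes differ in what lies over the start. They come from a table of RefSeq start sequences (GRCh38.p14) with the 300 bases from 250 before to 50 after each start, in which 8 starts of 6 of the genes were matched. For FEZF2 and EMX1 both outer gene ends were used. In the first pair the capitals mark TAATTA, a core that many homeodomain proteins bind, and CCAAT, a promoter element, on either strand. In the second pair they mark the longest stretch that the starts of CUX1 and CUX2 have in common.
TBR1, chr2:161416047-161416346, plus strand: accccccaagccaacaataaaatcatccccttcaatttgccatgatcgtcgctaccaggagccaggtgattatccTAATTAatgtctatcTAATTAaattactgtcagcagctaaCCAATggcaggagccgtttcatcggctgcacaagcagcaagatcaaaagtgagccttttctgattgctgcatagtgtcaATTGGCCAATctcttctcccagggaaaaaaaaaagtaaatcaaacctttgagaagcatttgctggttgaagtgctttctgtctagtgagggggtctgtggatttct
EMX2, chr10:117542496-117542795, plus strand: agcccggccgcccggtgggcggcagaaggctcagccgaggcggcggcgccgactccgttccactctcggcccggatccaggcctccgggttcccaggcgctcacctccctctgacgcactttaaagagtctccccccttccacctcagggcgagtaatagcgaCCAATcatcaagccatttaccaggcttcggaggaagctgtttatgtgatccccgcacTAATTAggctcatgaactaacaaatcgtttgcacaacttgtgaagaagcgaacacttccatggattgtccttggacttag
CUX1, chr7:101815757-101816056, plus strand: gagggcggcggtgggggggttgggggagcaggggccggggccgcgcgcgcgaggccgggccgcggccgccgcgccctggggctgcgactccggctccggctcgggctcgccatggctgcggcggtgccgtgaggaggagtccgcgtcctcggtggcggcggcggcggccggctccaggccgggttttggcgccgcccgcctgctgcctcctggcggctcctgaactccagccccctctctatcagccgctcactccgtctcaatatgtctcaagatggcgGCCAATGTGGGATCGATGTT
CUX2, chr12:111033915-111034214, plus strand: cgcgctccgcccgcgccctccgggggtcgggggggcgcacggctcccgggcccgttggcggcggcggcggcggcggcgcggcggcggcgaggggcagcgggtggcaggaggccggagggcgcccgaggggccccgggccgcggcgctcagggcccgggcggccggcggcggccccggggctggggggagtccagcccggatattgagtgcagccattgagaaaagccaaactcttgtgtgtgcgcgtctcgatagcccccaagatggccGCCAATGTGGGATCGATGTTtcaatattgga

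The TBR1 start held 2 TAATTA matches and 3 CCAAT matches, and the EMX2 start held 1 of each. TAATTA was found in only these 2 of the 8 starts, and in 3.39% of the 22183 starts of protein-coding genes. CCAAT was found in 4 of the 8, and in 34.7% of all starts. In the 250 bases before the start alone it was left in 2 of the 8, those of TBR1 and EMX2, and in 32.7% of all starts, because the matches of CUX1 and CUX2 lie after the start. The CUX1 and CUX2 starts share a run of 20 bases, GCCAATGTGGGATCGATGTT, whose first base lies 30 bases after the start in CUX1 and 19 bases after it in CUX2. Among the 26 pairs of starts from different genes, the next longest run was 12 bases. The run holds ATCGAT, which was found in these 2 starts and in 0.748% of all starts. It directly follows atggcg in CUX1 and atggcc in CUX2, so in both an ATG lies before it in the same reading frame. It may therefore be protein-coding sequence that these paralogs share, and its words need not be promoter elements. Coding sequence was not analysed here. The E-box words CAGATG and CAGCTG, of the type that proneural proteins bind, were found in 0 and 1 of the 8 starts, against 12.2% and 18.0% of all starts. GGGCGG, the core that SP1 binds, was in 4 of 8, against 56.3%, TATAAA was in 1, against 9.47%, and AGGTGT, part of the T-box site, was in 0, against 10.7%. These are matches of letters on both strands, not binding sites.

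Strength is given in tags, the number of pooled sequence tags over a summit recovered from the authors' fold enrichment and p-value. Over all regions it ran from 58 to 3783 with a median of 238, where the counting error alone is 6.48% of the value. Tags came from PCR-amplified libraries, so the 95% intervals below, by the exact Poisson method, cover counting error only. Fold enrichment is the authors' value for a summit over its background, with a median of 5.6 over the regions. Across all protein-coding genes, 66.7% had a summit within 1 kb of an outer end. Of the marker genes, 6 of 8 neuronal, 5 of 5 GABAergic, 4 of 4 neural progenitor, 1 of 2 glutamatergic (SLC17A6 but not SLC17A7), 2 of 4 peripheral sensory, 2 of 3 astrocyte, 1 of 4 pluripotency, 0 of 3 oligodendrocyte and 0 of 3 microglial genes did. By listed starts, where genes with at least 1 accessible start made up 71.2% of all protein-coding genes with a listed start, some genes differed. The neuronal genes TUBB3 and RBFOX3, with no accessible end, had a summit near 1 of 2 and 2 of 12 listed starts, MBP of oligodendrocytes near 1 of 2 and DPPA4 of pluripotent cells near 1 of 1, and GAD1 of GABAergic neurons near 0 of 1. Lists this small do not tell cell types apart, and the part of other cells in the values below was not tested.

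Of the 8 genes, 6 had a summit within 1 kb of an outer end: BCL11B, EOMES, CUX1, CUX2, EMX1 and EMX2. Against the share of 66.7% over all protein-coding genes, 6 of 8 (75%) is close to the background. The count depended on the limit. It was 4 of 8 within 500 bp, against 59.6% of protein-coding genes, and 8 of 8 within 2 kb, against 71.8%. With any overlap of 1 bp in place of a summit it was 7 of 8, against 70.1%. Among regions above the list's median fold enrichment alone, 2 of the 8 genes, EOMES and CUX1, had such a summit, against 56.4% of protein-coding genes. Each region is placed here by its strongest summit alone. The nearest of these summits lay 46 bp from an end in EMX1, 51 bp in CUX1, 87 bp in BCL11B, 180 bp in EMX2, 581 bp in CUX2 and 790 bp in EOMES. FEZF2, at 1002 bp, fell just outside the limit, and TBR1 was the farthest at 1574 bp. Counted by listed starts, 6 of 8 starts had a summit within 1 kb, as did 66.7% of all starts, and the same 6 starts lay inside a region, as did 65.5% of all. EMX2 had a summit near both ends, which 5.36% of protein-coding genes had.

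**Figure D1:**
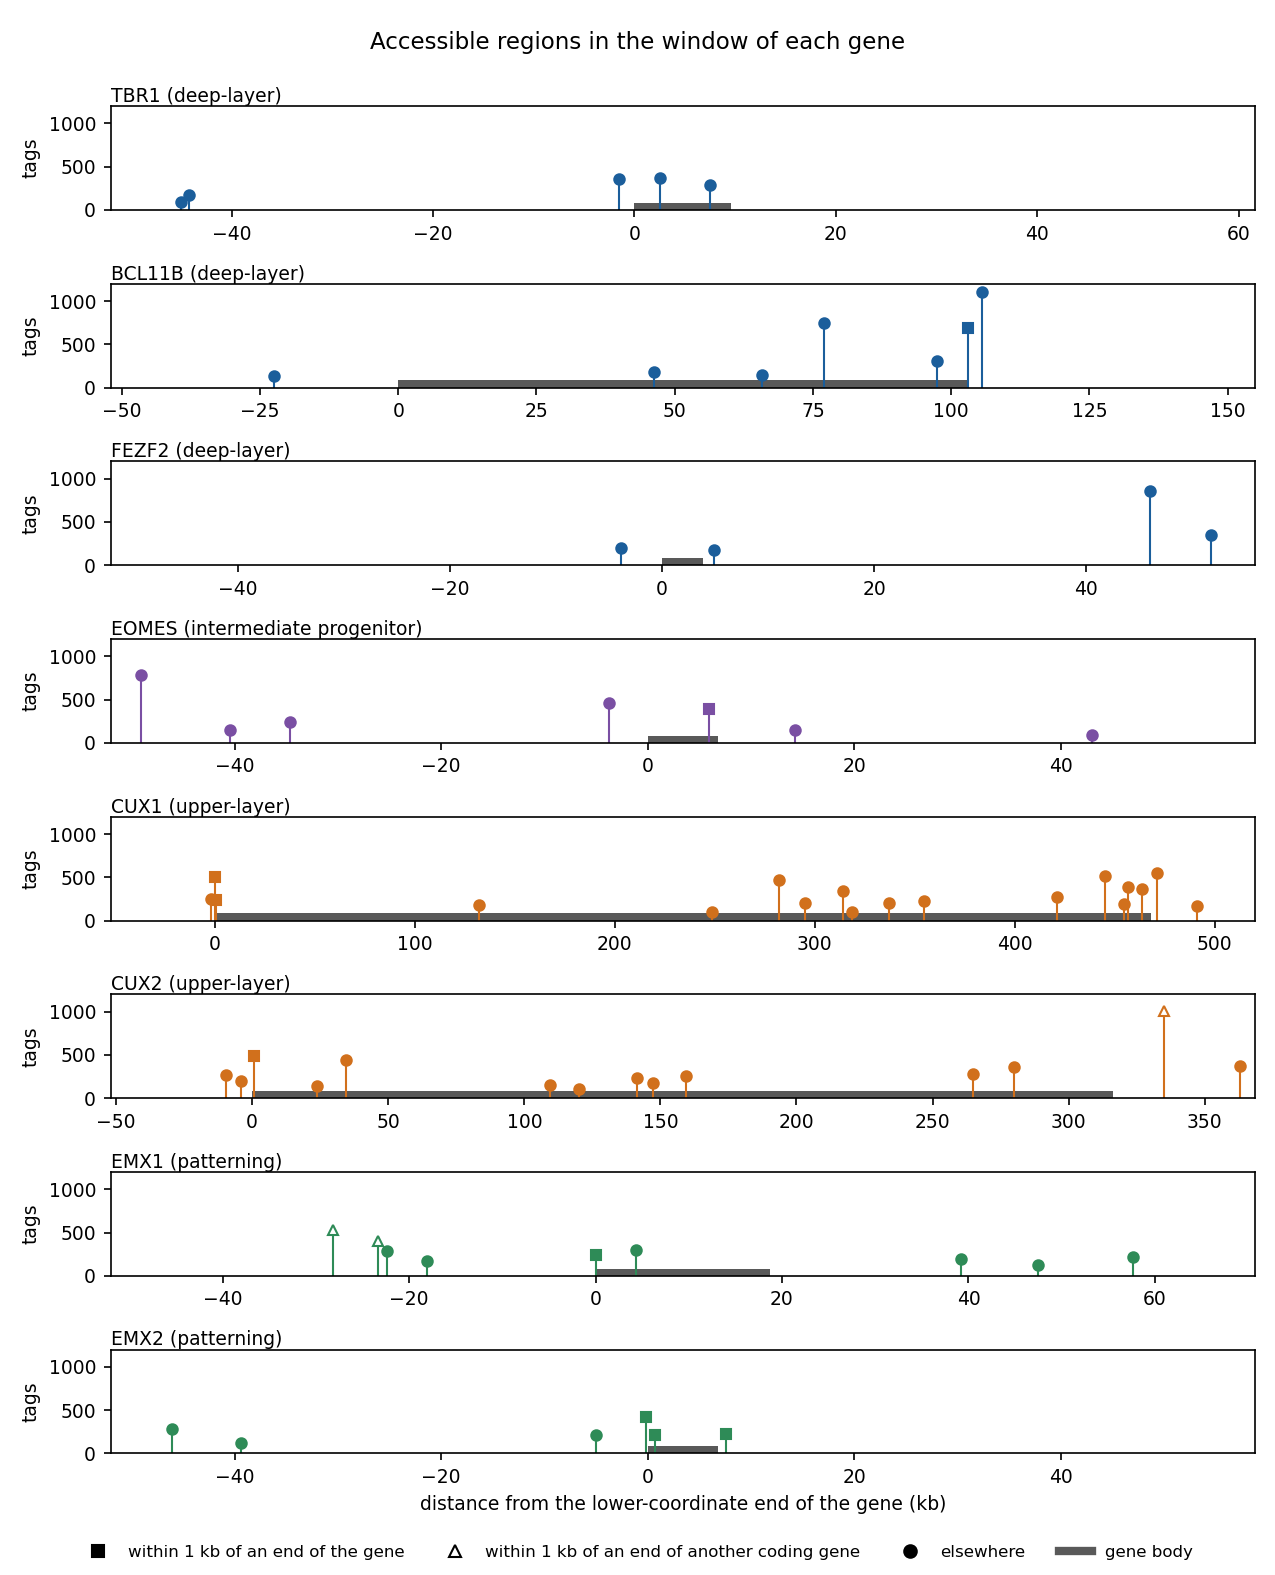
Tags at the summit (vertical axis) of each of the 70 regions, placed by distance in kb from the lower-coordinate end of the gene, in 1 panel per gene with its own horizontal scale. Squares are within 1 kb of an end of the gene, open triangles within 1 kb of an end of another protein-coding gene, circles elsewhere, and the grey bar is the gene body; BCL11B has the tallest region, with 1106 tags, and no square is above 683.

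The regions at the genes' own ends had fewer tags than most regions at gene ends. There were 9 of them at the 6 genes, with 210 to 683 tags and a median of 397. All 9 were below the median of 842 tags of the 12675 regions at ends of protein-coding genes, where by construction 49.9% are below. They stood between percentiles 9.13 and 40.8 of that class. By fold enrichment all 9 were below too, at 2.59 to 6.61 against a median of 9.8, where 50.0% are below. The local backgrounds of the 9, from 65.6 to 147 tags, spanned the median of 82.9 tags for regions at gene ends. Nothing was tested here, because the regions come from 1 pooled list and are not replicates.

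Taken by gene, the strongest end region placed EMX1 at percentile 8.33, EOMES at 18.1, EMX2 at 19.5, CUX2 at 23.1, CUX1 at 24.2 and BCL11B at 34.3 of the 13367 protein-coding genes with an accessible end, whose median was 958 tags. Neighbours in that order differ little: EOMES had 397 tags (interval 359 to 438) and EMX2 had 420 (381 to 462), and CUX2 had 485 (443 to 530) and CUX1 504 (461 to 550), each pair with overlapping intervals. EMX1, with 235 tags (206 to 267), lay below them and BCL11B, with 683 (633 to 736), above.

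**Figure D2:**
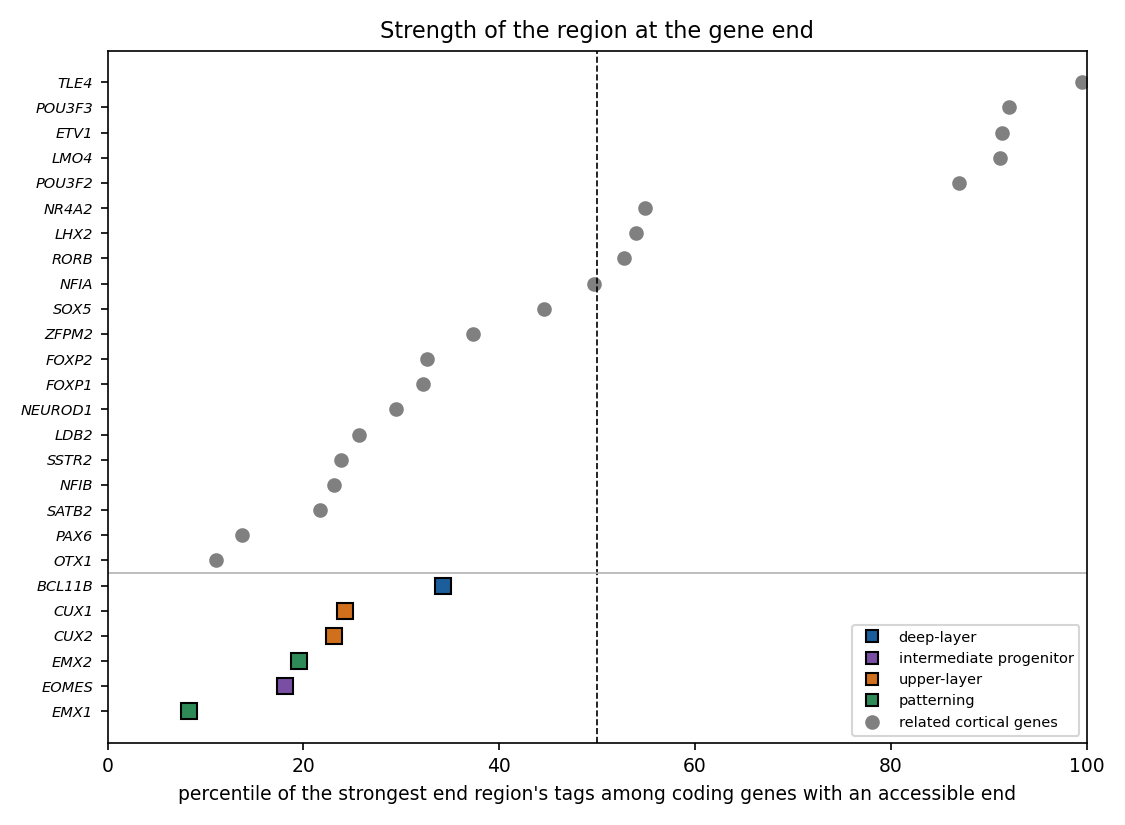
Percentile of the tag count of a gene's strongest end region among all protein-coding genes with an accessible end, for 6 genes (squares, coloured by role) and 20 of the 21 related cortical genes with an accessible end (grey circles); the dashed line is percentile 50. The squares lie between 8.33 and 34.3, and the circles run from 11.1 to 99.5.

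**Figure D3:**
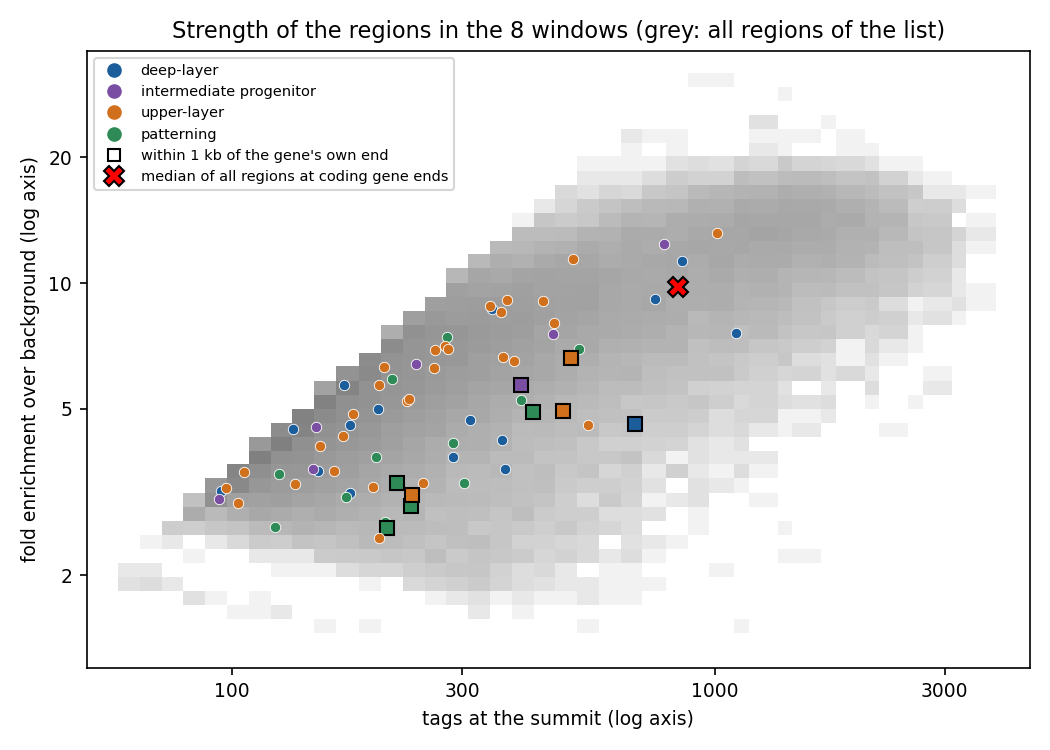
Tags at the summit against fold enrichment, both on log axes, for the 70 regions (coloured by role, squares with a black edge at the gene's own ends) over all 65234 regions in grey, darker where more regions fall. The cross is the median of all regions at coding gene ends, 842 tags and 9.8-fold, and each of the 9 squares is below it on both axes.

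Where a start was listed, the strongest region of the window was mostly elsewhere. Only EMX2, 1 of 6 genes with a listed start, had its highest-tag region within 1 kb of that start, whereas 37.8% of 10531 protein-coding genes with at least 4 regions and a listed start did. By fold enrichment it was 0 of 6, against 32.2%. In the CUX2 window the highest-tag region was at an end of PHETA1. In the CUX1 window it was inside SH2B2, and its interval overlapped that of the region at the CUX1 start. The reference genes were not matched for the number of regions. All 8 windows held at least 4 regions, as did 65.9% of protein-coding genes.

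TBR1, a deep-layer T-box factor, lies on chromosome 2 from 161416297 to 161425870 and had 5 regions. None covered its start. The nearest spanned 161414240 to 161415081, with its summit 1574 bp upstream and its edge 1216 bp from the start, and had 363 tags (interval 327 to 402). Another, from 161418556 to 161419244, had its summit 2514 bp inside the gene and 368 tags (331 to 408). The last of these, from 161423283 to 161424342, was 7476 bp inside, with 287 tags (255 to 322). The first 2 had overlapping intervals and the last lay below both. With 3 regions within 10 kb the start stood at percentile 95.4 of all starts, whose median was 1, and so did the starts of BCL11B and CUX1 and the first start of CUX2. The other 2, with 95 and 171 tags, lay 45063 and 44207 bp upstream, inside PSMD14, a proteasome subunit gene. The one with 171 tags had the highest fold enrichment of the window, 5.69, and was the only one of the 5 above the median of 5.6.

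The TBR1 start was also the one with the lowest GC content of the 8, 43.3%, at percentile 10.6 of all starts. It held 4 CpG, at percentile 16.3. When all starts were split by GC content into 5 classes of about equal size, 27.8% in the lowest class, from 6.67 to 50.0%, had a summit within 1 kb (Wilson 95% interval 26.5 to 29.1%), and in the highest class 89.4% did (88.4 to 90.3%). The second CUX2 start, at 53.0% GC, had no summit within 1 kb either. The 3 starts of highest GC content belong to CUX1 (75.3 and 78.3%) and CUX2 (76.0%), and all had one. Within their own GC class all 6 starts with a region were below the median by tags. BCL11B was at percentile 32.6, CUX1 at 26.3 and 7.58, CUX2 at 24.5, EMX2 at 18.2 and EOMES at 13.1.

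**Figure D4:**
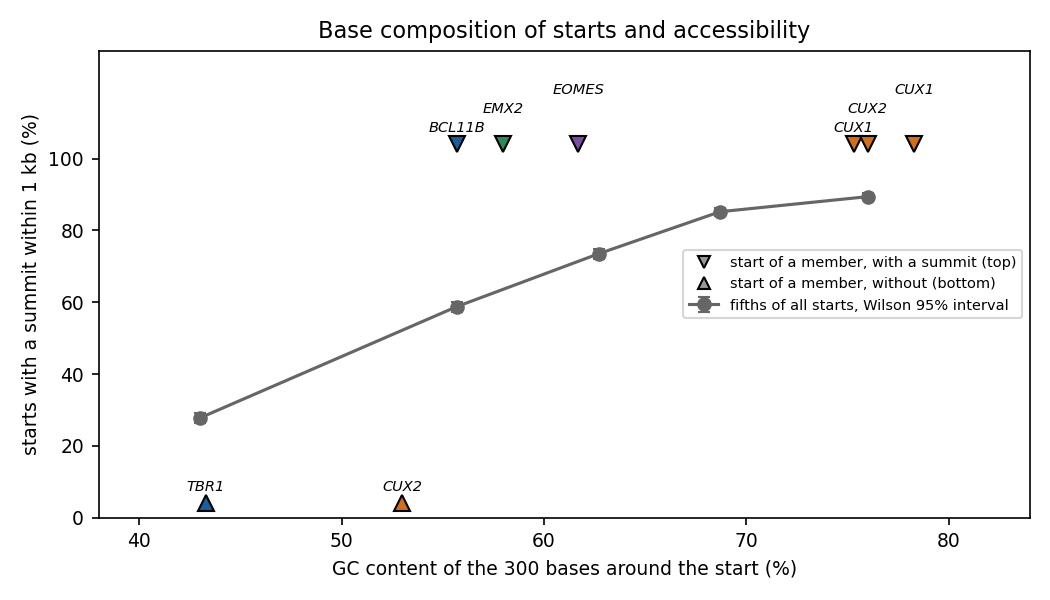
Share of starts of protein-coding genes with a summit within 1 kb, in %, against the median GC content of each of 5 classes of starts, in %, with Wilson 95% intervals. Triangles mark the 8 listed starts of 6 genes at their GC content, at the top where a summit lay within 1 kb (6 starts) and at the bottom where none did (TBR1 and the second start of CUX2); their height is not a value.

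BCL11B, a zinc finger factor of subcortical projection neurons, lies on chromosome 14 from 99169287 to 99272197 on the minus strand and had 7 regions, all nearest to BCL11B itself. Its start was covered by a narrow region from 99271949 to 99272572 with a single summit 87 bp upstream, 683 tags and a fold enrichment of 4.61 over a background of 147 tags. The strongest region of all 70 by tags lay 2647 bp upstream of the start, from 99274382 to 99275195, with 1106 tags (interval 1042 to 1173) and a fold enrichment of 7.61. It stood at percentiles 97.8 by tags and 79.3 by fold among regions away from coding gene ends. Another strong region, from 99245570 to 99247085, lay 25910 bp inside the gene, with 752 tags (699 to 808) and the highest fold enrichment of the window, 9.18. The other 4 had 134 to 312 tags. The 3 strongest BCL11B regions therefore lay between 2647 bp upstream of the start and 25910 bp inside the gene. The longest stretch without a summit, 68.8 kb, ran across the far end of the gene, between the regions with 134 and 176 tags.

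FEZF2, a zinc finger factor that specifies subcortical projection neurons, is a short gene on chromosome 3 from 62369681 to 62373550 and had 4 regions, none inside it. The 2 nearest had fewer tags than the other 2, at percentiles 39.6 and 48.9 among regions away from coding gene ends. One, from 62373949 to 62374916, had its summit 1002 bp beyond the higher-coordinate end, inside the lncRNA gene LOC105377647, with 176 tags (interval 151 to 204) and a fold enrichment of 3.15. The other, from 62365127 to 62366029, lay 3915 bp beyond the lower-coordinate end with 201 tags (174 to 231). The 2 strongest lay 42148 and 47878 bp beyond the higher-coordinate end, inside CADPS, a gene of vesicle release. They had 857 tags (801 to 916) at a fold enrichment of 11.3, and 346 tags (310 to 384) at 8.68. The first stood at percentile 96.1 by tags among regions away from coding gene ends. Which gene, if any, these regions act on cannot be read from the list.

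EOMES lies on chromosome 3 from 27715953 to 27722713 on the minus strand and had 7 regions, with no other protein-coding gene nearer to any of them. The region at its start, from 27720970 to 27722659, had its summit 400 bp into the gene, with 397 tags and a fold enrichment of 5.72. Another lay 3708 bp past the far end, from 27711944 to 27713302, with 463 tags (interval 422 to 507), which overlaps the interval of the start region (359 to 438). Its summit is inside the pseudogene KIAA1143P2. The strongest lay 49018 bp past the far end, from 27666316 to 27667469, with 785 tags (731 to 842) and a fold enrichment of 12.4, at percentiles 95.3 by tags and 97.5 by fold among regions away from coding gene ends. It is near the edge of the 50 kb window. The weakest, 36630 bp upstream, had 94 tags, the lowest of all 70 regions. The 7 regions held 19 summit entries, and 3 of them, the one at the start included, held 4 each.

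CUX1 and CUX2, the upper-layer pair, are the longest of the genes and held the most regions. CUX1, on chromosome 7 from 101816007 to 102283958, had 18, of which 14 lay inside the gene. CUX2, on chromosome 12 from 111034165 to 111350554, had 14, of which 10 lay inside. Their windows are the largest too, at 568 and 416 kb. Genes within 25% of their lengths had medians of 12 and 10 regions, which places CUX1 at percentile 81.5 and CUX2 at percentile 78.6.

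At the CUX1 start 3 regions stood close together, at 1707 bp upstream (249 tags), 51 bp upstream (504 tags) and 764 bp inside (236 tags). After them came a stretch of 131 kb without a summit, and of the 14 regions inside the gene 12 lay past its midpoint. The highest fold enrichment was 11.4, with 509 tags (interval 466 to 555), at 22886 bp before the far end, from 102260703 to 102261444. The most tags, 546 (501 to 594), were at a region of 2109 bp with 6 summits, from 102286085 to 102288193. This one lies 2968 bp past the end of CUX1 and inside SH2B2, a gene for an adaptor protein, and only 780 regions of the list are wider. The 3 highest CUX1 regions by tags had overlapping intervals.

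The first CUX2 start lay in the widest of all 70 regions, 2890 bp with 8 summits, from 111033319 to 111036208. Only 28 regions of the list are wider and 65 have more summits. Its strongest summit, 581 bp inside the gene, had 485 tags and a fold enrichment of 4.93, so its width stood higher in the list than its strength. The second listed start, 31534 bp from the nearest summit, had no region within 10 kb, which places it at percentile 9.06 of all starts. Away from the start, the region with the most tags inside the gene, from 111067938 to 111068905, lay 34305 bp past the first start, with 441 tags (interval 401 to 484) and a fold enrichment of 9.04. Of the 10 regions inside CUX2, 7 lay before its midpoint and 3 past it. The strongest region of the window, from 111368316 to 111369541 with 1013 tags (952 to 1077) and a fold enrichment of 13.2, lay 65 bp from an end of PHETA1, a neighbouring gene, and is a gene-end region of that gene. Another at 46574 bp past CUX2, with 372 tags, was nearest to SH2B3 among protein-coding genes and lay inside the lncRNA gene LINC02356.

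EMX1, on chromosome 2 from 72916189 to 72934891, had 9 regions, but only 2 of them were nearest to EMX1. These were the region at its lower-coordinate end, from 72915966 to 72916528, with 235 tags and a fold enrichment of 2.92, and one 4338 bp inside, from 72920152 to 72920895, with 303 tags (interval 270 to 339). Of the others, 4 lay in or near SPR, a gene of biopterin synthesis, and 3 inside SFXN5, a mitochondrial carrier gene. The strongest of the window, 524 tags (480 to 571) and 6.94-fold, lay 586 bp from an end of SPR. Without the regions nearest to other genes EMX1 had fewer regions than CUX1, CUX2, BCL11B, EOMES, EMX2 and TBR1, and as many as FEZF2.

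EMX2, on chromosome 10 from 117542746 to 117549546, had 6 regions, and no other protein-coding gene was nearer to them. Its start lies inside EMX2OS, an antisense gene from 117484293 to 117545068, so a region over that overlap may belong to either. The region over the start, from 117541904 to 117542817, had its summit 180 bp upstream with 420 tags, the most of the window, and a fold enrichment of 4.91. With 3 more, at 711 and 7583 bp after the start (210 and 220 tags, the latter 783 bp past the far end of the gene) and 5006 bp before it (208 tags), 4 regions lay within 10 kb, at percentile 99 of all starts. The highest fold enrichment, 7.43 with 279 tags (interval 247 to 314), lay 46024 bp upstream, from 117496392 to 117497238, also inside EMX2OS. It was the only EMX2 region above the median fold enrichment of the list.

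Set side by side by role, the upper-layer factors had 3.25 regions per 100 kb of window (32 regions, interval 2.22 to 4.59), the deep-layer factors 3.84 (16 regions, 2.2 to 6.24) and the patterning factors 6.65 (15 regions, 3.72 to 11.0). EOMES had 6.56 (7 regions, 2.64 to 13.5). The intervals for counting error of the patterning factors overlap those of the other groups, and with 2 or 3 genes in each group no test was made. Gene length moves with this order. The median was 3.74 per 100 kb over the windows of 9023 protein-coding genes under 20 kb and 2.22 over those of 1000 genes of at least 250 kb, against 3.11 over all. When only regions nearest to the gene itself were counted, the values were 2.84, 2.88 and 3.55, in the order upper-layer, deep-layer and patterning. They were taken over the full windows, also where another gene was nearer, so they cannot be set against the medians above. When only regions above the list's median fold enrichment were counted, the order changed, to 1.63, 1.2 and 1.33. This choice goes by fold enrichment and not by tags. By tags, 17 of 32 upper-layer, 9 of 16 deep-layer and 6 of 15 patterning regions exceeded the list's median.

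The patterning windows, with the most regions per 100 kb, had the lowest median strength of the groups. The median fold enrichment was 5.5 for the upper-layer, 4.59 for the deep-layer and 3.5 for the patterning windows, and 5.72 for EOMES. Of the regions, 16 of 32, 5 of 16, 3 of 15 and 4 of 7 in the same order exceeded the median of the whole list, which 50.0% of all regions exceed. Over all 8 genes it was 28 of 70. By tags the medians were 256, 300, 220 and 241, and 36 of 70 regions exceeded the list's median of 238. Of the 70 regions 48 (68.6%) had the top score of 1000, against 73.7% of the list. The 58 regions away from any coding gene end had a median of 232 tags and a fold enrichment of 4.64, against 204 tags and 5.16 for all such regions of the list.

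In number of regions, 7 of the 8 genes stood above percentile 50 of genes of similar length, with a median of 75.6. Among regions above the list's median fold enrichment it was 3 of 8, EOMES, CUX1 and CUX2, with a median of 39.5. With all regions EMX1 was at 92.7, EOMES at 79.9, BCL11B at 72.6, EMX2 at 71, TBR1 at 59.3 and FEZF2, the one below, at 49.3. Of the 9 regions of EMX1, 7 were nearest to other genes. Among the marker genes, with all regions, 5 of 8 neuronal, 2 of 2 glutamatergic, 4 of 5 GABAergic and 4 of 4 neural progenitor genes stood above percentile 50. So did 3 of 3 astrocyte, 3 of 3 microglial, 2 of 3 oligodendrocyte, 1 of 4 pluripotency and 1 of 4 peripheral sensory genes. The share of all protein-coding genes above percentile 50 is not given here.

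**Figure D5:**
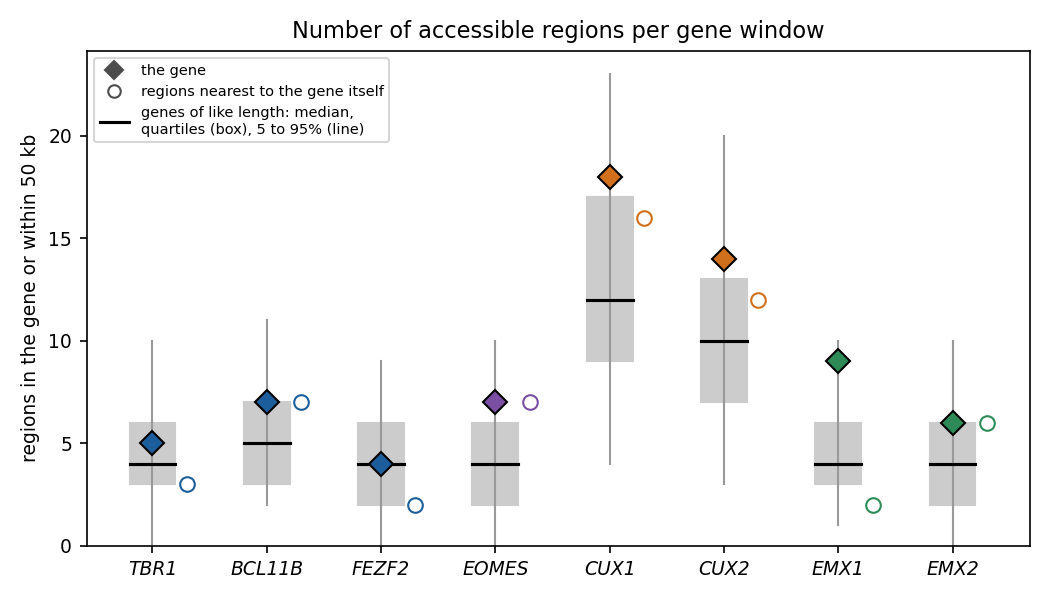
Number of regions inside each gene or within 50 kb (diamonds, coloured by role) against protein-coding genes within 25% of its length (line for the median, box for quartiles, whisker for 5 to 95%). Open circles count only regions nearest to the gene itself, and EMX1 goes from 9 to 2. The lines, boxes and whiskers count all regions in the windows of the other genes, so they are no reference for the open circles.

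Of 25 other genes used as markers of cortical layers or of the forebrain, 21 had an accessible end (84%, against 66.7% of protein-coding genes). BHLHE22, MEF2C, NEUROD2 and NEUROD6 did not, although 2 of the 7 listed starts of MEF2C had a summit within 1 kb. The most regions were at SOX5 (36, percentile 93.1 of genes of similar length), NFIB (26, percentile 98.2) and NFIA (19, percentile 90.3), all long genes. The median was 8 regions, with a range of 1 to 36, and 21 of the 25 stood above percentile 50, with a median of 71.5. Their end regions were below the gene median of 958 tags in 13 of the 21 with an accessible end, with a median percentile of 37.3, whereas it was 6 of 6 with a median of 21.3 for the genes described here. Low values were also found at the GABAergic genes, 4 of 5 below the gene median with a median percentile of 19.8, and at SLC17A6, at percentile 7.93. Lower still were the astrocyte genes AQP4 and ALDH1L1, at 0.928 and 0.393, and the pluripotency gene LIN28A, at 3.96. The neuronal, neural progenitor and peripheral sensory lists had median percentiles of 46.0, 52.5 and 46.2. The differences between these lists were not tested.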

How the data were processed

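ATAC-seq was done on 3 biological replicates of KOLF2.1J neurons with hNGN2 at day 14, per the labels' protocols, and 1 list for all 3 was analysed. The authors' fold enrichment is a linear ratio per summit, deposited with −log10 p values and a score from 540 to 1000, whose scaling is not stated. The list is labelled as an IDR optimal list. IDR is the irreproducible discovery rate, a measure of agreement between replicates. A region missing from the list need therefore not be closed DNA. The build is hg38, per the submitters' processing notes, and the aligner and peak caller are not given in the sources used here. Positions are counted from 1.

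The 145092 summit entries gave 65234 regions once those of equal bounds were joined, keeping the summit with the highest −log10 p. Tags were recovered as the whole number that fits the fold enrichment (with a pseudocount of 1) and the Poisson p of each entry. The largest misfit was 0.00079 units of −log10 p, whereas the next whole number missed by a median of 0.266. Depth per replicate is unknown. Outer gene ends were read from RefSeq (GRCh38.p14), all 8 genes and all 25 related and 36 marker genes matched by symbol, and exons and introns were not analysed here. The nearest gene is the protein-coding one at the smallest distance from the summit. Genes of similar length are within 25%, and percentiles are mid-rank values. They describe this list and carry no p-value. The value of 1 related gene is not reported here singly, and counts over the list include it.

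The genes and lists were chosen with earlier results of these data known, and the strength of end regions, listed starts, GC content and motif words were chosen after seeing the data. Named regions were, for each gene, those at an end, with the highest fold enrichment or with the most tags, and others near the start were added after their values were seen. Alternatives were a score of at least 830, other windows, summit entries, any overlap of 1 bp and other reference genes. Python 3.11.15, numpy 2.4.6, scipy 1.17.1, pandas 2.3.3 and matplotlib 3.10.9 were used, and the code was tested on simulated data.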

Additional observations from a re-analysis of the deposited data

How the results depend on the processing

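Of 157 recomputed values for 26 results, 110 stayed within the limits set (1.5 times for a count, the counting interval for a density or percentile) and 47 moved. The total of 70 regions became 28 above the median fold enrichment, 156 as summit entries and 34 in the gene bodies alone. Regions per 100 kb above the median fold enrichment were 1.63 for the upper-layer, 1.2 for the deep-layer and 1.33 for the patterning factors, and as entries 7.82, 7.93 and 12. For the patterning factors the value was 11.8 in the gene bodies alone and, over the full windows, 3.55 for regions nearest to the gene itself. The settings differ by construction in how many regions they admit. Only 2 of the 8 genes had an accessible end above the median fold enrichment. With 500 bp as the limit 4 regions lay at the genes' own ends, and all 4 were below the median in tags; with 2 kb there were 12, all below it. The patterning factors had the highest density in every setting run except above the median fold enrichment. The percentile of region counts ranged over the settings from 19.7 to 60.2 for TBR1, 29.9 to 80.5 for BCL11B, 34.6 to 92.7 for EMX1 and 22.7 to 76 for EMX2, with the lowest each time above the median fold enrichment, and the cause was not tested. In that setting 3 of the 8 genes stood above percentile 50, against 6 to 8 in the other settings. CCAAT matches in the listed starts fell from 7 to 4 in the bases before the start alone. No paired analysis was possible because only 1 group exists and its 3 replicates were merged before deposit, which also kept any replicate from being left out.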

Other observations

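Among the related genes, end strength spread widely, and the genes named here were chosen after their values were seen. TLE4, a corepressor gene, stood at percentile 99.5 of protein-coding genes with an accessible end, POU3F3 at 92.1, ETV1 at 91.3, LMO4 at 91.1 and POU3F2 at 87. PAX6 and OTX1 stood at 13.7 and 11.1, and LHX2, like them a forebrain gene, at 54.0. PAX6 had a summit within 1 kb of 1 of its 9 listed starts. NEUROD6, a factor of cortical excitatory neurons, had 1 region in its window, at percentile 17.1 of genes of similar length, and NEUROD2 had 7, at percentile 79.7, with no accessible end.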
